A study of Mus musculus with 17 samples.

Results

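The collagen genes, listed under symbols of the form Col, a type number, the letter a and a chain number, were followed in the livers of mice with and without hepatocyte NgBR and in tumors. The rule took every gene symbol of that form and used no expression value. It found 37 genes in the Western diet (WD) table and 29 in the high-fat diet (HFD) table, and all 29 were also among the 37; the tables held 24233 and 19151 genes. By chain type, 9 of the 37 were fibrillar, 8 were basement membrane collagens, 5 were beaded filament (type VI) chains, 6 were fibril-associated, 5 were network, anchoring or other chains and 4 were transmembrane. The HFD table lacked 8 of them: Col4a6, Col7a1, Col9a3, Col10a1, Col17a1, Col22a1, Col25a1 and Col28a1. A further 7 genes of the family (Col2a1, Col6a4, Col9a1, Col9a2, Col11a1, Col19a1 and Col26a1) were not analysed here.

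All mice were on a C57BL6 background. N-LKO mice carry loxP-flanked Nus1, the gene of NgBR, which is deleted by a Cre recombinase under the albumin promoter. The paper calls the deletion hepatocyte-specific and names endothelial, stellate and Kupffer cells as liver cells that express NgBR. WT mice were the controls, and their alleles are not given in the sources used here. After 8 weeks of chow, one cohort received HFD for 16 weeks (WT HFD, n = 4; N-LKO HFD, n = 4). Another received WD, a diet rich in both fat and cholesterol, also for 16 weeks (WT WD, n = 3; N-LKO WD, n = 3), and 3 tumors of N-LKO mice on WD were sequenced as well (Tumor WD, n = 3). Whether a tumor and a liver with the same number came from 1 mouse is not stated.

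Collagens are secreted proteins whose chains wind into a triple helix. Fibrillar types I, III and V form the fibrils of scar tissue, and in liver they are made mainly by stellate cells and portal fibroblasts once these are activated. Type IV collagen is the sheet of basement membranes; its Col4a1 and Col4a2 chains are found in nearly all of them, while the Col4a3, Col4a4, Col4a5 and Col4a6 chains serve particular epithelia. Types XV and XVIII, encoded by Col15a1 and Col18a1, carry sugar chains and sit at or next to basement membranes, and hepatocytes themselves express Col18a1. Type VI collagen (Col6a1, Col6a2, Col6a3 and the related Col6a5 and Col6a6) forms thin beaded filaments around cells.

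Library totals ran from 9096110 to 12215784 counts under HFD and from 15494731 to 20200618 under WD. Levels are given below as CPM, counts scaled to a common library size; they compare libraries for 1 gene, and values per kilobase of transcript are used where genes are compared. Nus1 was 35.1 ± 3.99 CPM in N-LKO HFD livers (SD, as for all means below) and 88.2 ± 5.90 in WT HFD livers (−1.33 ± 0.10, adjusted p 0.000194; log2 fold changes are given ± standard error). Under WD it was 46.7 ± 4.75 CPM in N-LKO livers, 35.8 ± 7.59 in tumors and 94.5 ± 5.57 in WT livers, and every N-LKO liver and tumor lay below every WT liver, although the adjusted p was 0.151 for N-LKO against WT liver. All 10 hepatocyte markers listed were in both tables, and every library summed to at least 37703 CPM over them. The libraries that stood apart for collagens were WT WD 2 and WT HFD 1, which were the lowest and the highest of their group for types I and III, and tumors 1, 2 and 3, which differed widely among themselves for type IV; 4 of 6 pancreas markers were in the WD table and summed to 23.4 CPM in WT WD 3 and at most 1.33 in the other WD libraries, and none was in the HFD table.

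The most abundant collagen transcript per kilobase was Col18a1 in every library, and its share of the collagen pool differed between groups. Col18a1 made up 77.4% ± 5.58 of all collagen CPM per kilobase in WT HFD livers and 69.2% ± 3.59 in N-LKO HFD livers. Under WD the share was 56.3% ± 13.4 in WT livers, 36.4% ± 5.16 in N-LKO livers and 33.3% ± 6.61 in tumors. Types I and III (Col1a1, Col1a2 and Col3a1 summed), the main scar collagens, took 4.01% ± 2.51 in WT HFD and 9.06% ± 2.11 in N-LKO HFD livers. Under WD they took 15.1% ± 8.84 in WT livers, 27.5% ± 4.72 in N-LKO livers and 24.3% ± 7.93 in tumors. Tumors held the largest mean share of the Col4a1 and Col4a2 pair, 18.8% ± 7.99 against 10.4% ± 0.140 in N-LKO WD and 8.72% ± 1.45 in WT WD livers. These shares are descriptions and were not tested. Diet and table cannot be told apart, so the HFD and WD groups were not compared directly. In bulk tissue, more cells of a type and more RNA per cell cannot be told apart either.

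**Figure D1:**
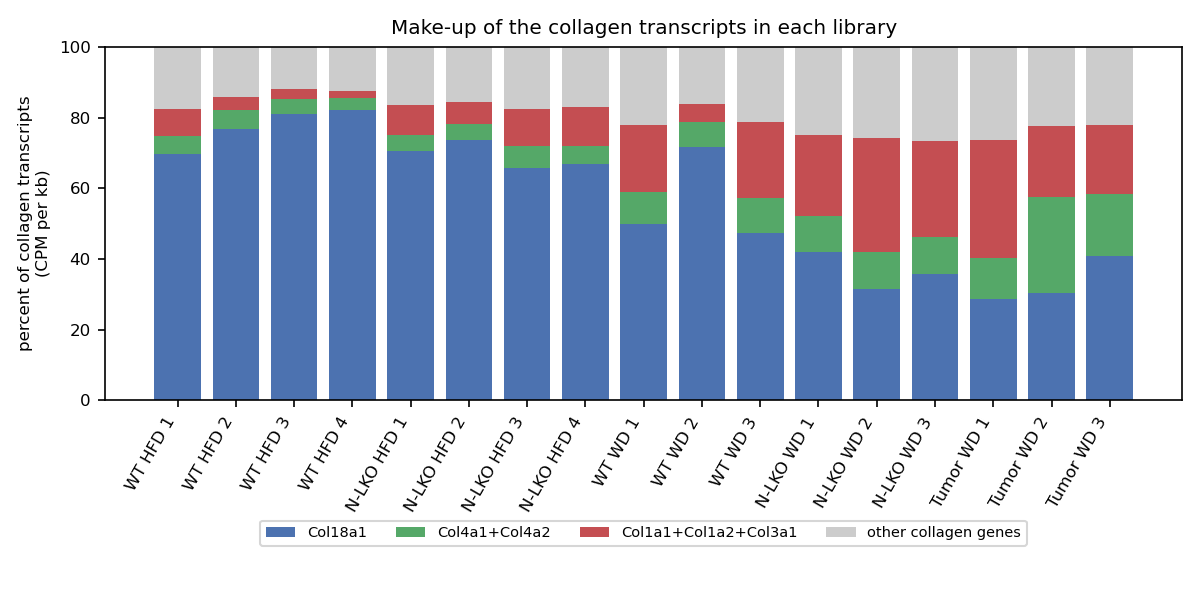
Make-up of the collagen transcripts in each of the 17 libraries. Each bar is 1 library, the vertical axis is the percent of collagen CPM per kilobase, and the colors are Col18a1, the Col4a1 and Col4a2 pair, types I and III together and all other collagen genes; WT WD 2 has a Col18a1 share of 71.7%, far from the 49.9% and 47.3% of the other WT WD livers, and Col18a1 is the largest single gene in every bar.

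N-LKO and WT livers were compared under HFD to ask whether loss of NgBR in hepatocytes altered collagen transcripts in fatty liver. One collagen, Col6a2, passed the test and was higher in N-LKO livers. Of the 29 genes listed, 19 had enough counts to be tested, and 1 of the 19 passed, against 4.84% of all 13460 genes tested. Of the 19, 12 had a log2 fold change above 0, with a median of 0.26, against 49.1% of all genes and a median of −0.01.

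The type VI chains had the only call. Col6a2 was 3.33, 2.20, 2.00 and 2.95 CPM in the WT livers and 4.72, 4.45, 6.96 and 5.12 in the N-LKO livers. Every N-LKO value lay above every WT value (1.01 ± 0.23, adjusted p 0.0300). Its partner chain Col6a1 was 6.67, 4.97, 2.67 and 2.85 CPM in WT and 6.21, 6.10, 8.49 and 8.80 in N-LKO livers, and the groups overlapped through WT HFD 1 (0.78 ± 0.27, adjusted p 0.117). Col6a3, the long chain of the same trimer, was 8.33, 7.55, 3.22 and 4.07 in WT and 7.12, 8.24, 14.1 and 8.80 in N-LKO livers, with overlapping groups (0.70 ± 0.30, adjusted p 0.185). Groups did not overlap for 14.8% of all genes tested. The Col6a2 call was kept in 9 of 16 alternative analyses, with adjusted p between 0.00589 and 0.0937.

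The fibrillar genes had the largest fold changes but did not pass. Col1a1, a chain of type I collagen, was 10.002, 3.82, 2.56 and 2.04 CPM in WT livers and 12.3, 7.33, 15.7 and 18.6 in N-LKO livers, with only WT HFD 1 inside the N-LKO range (1.55 ± 0.42, adjusted p 0.0593). Its partner Col1a2 was 15.7, 6.79, 6.45 and 2.55 in WT and 15.4, 10.7, 24.8 and 22.6 in N-LKO livers, where WT HFD 1 again reached the N-LKO values (1.22 ± 0.41, adjusted p 0.104). Col3a1, the type III chain, was 27.1, 13.5, 9.56 and 7.94 in WT and 21.1, 20.4, 30.03 and 37.9 in N-LKO livers (0.91 ± 0.33, adjusted p 0.126). In all 3 genes the overlap between the groups came from that 1 WT library. Without it, 5 collagens passed and all were higher in N-LKO livers, namely Col1a1 at 2.25 (adjusted p 0.0109), Col1a2 at 1.79 (adjusted p 0.0217), Col3a1 at 1.40 (adjusted p 0.0165), Col6a1 and Col6a2. Without N-LKO HFD 2 the passing genes were Col1a1, Col5a3 and Col6a2, and with any 1 of the other 6 libraries left out there were 0. The median over the tested collagens was 0.54 without WT HFD 1. That library was singled out on values of these same genes, so the adjusted p without it are descriptions and not a separate test.

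Type V collagen, which joins type I fibrils in small amounts, was mixed. Col5a2 was 2.19, 1.05, 1.56 and 0.917 CPM in WT and 1.82, 2.31, 3.81 and 3.44 in N-LKO livers (0.98 ± 0.34, adjusted p 0.111). Col5a1 had a log2 fold change of 0.23 ± 0.34 (adjusted p 0.738). Col5a3 pointed the other way, at 18.02, 22.2, 29.02 and 20.98 CPM in WT and 15.6, 20.2, 14.8 and 14.1 in N-LKO livers (−0.48 ± 0.16, adjusted p 0.0987). Col27a1, a fibrillar chain known from cartilage, was 32.8, 26.0, 11.9 and 20.6 in WT and 30.2, 15.2, 25.9 and 28.2 in N-LKO livers, with broadly overlapping values (0.12 ± 0.27, adjusted p 0.832). Of the 7 fibrillar genes tested, 6 had a log2 fold change above 0, with a median of 0.91.

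**Figure D2:**
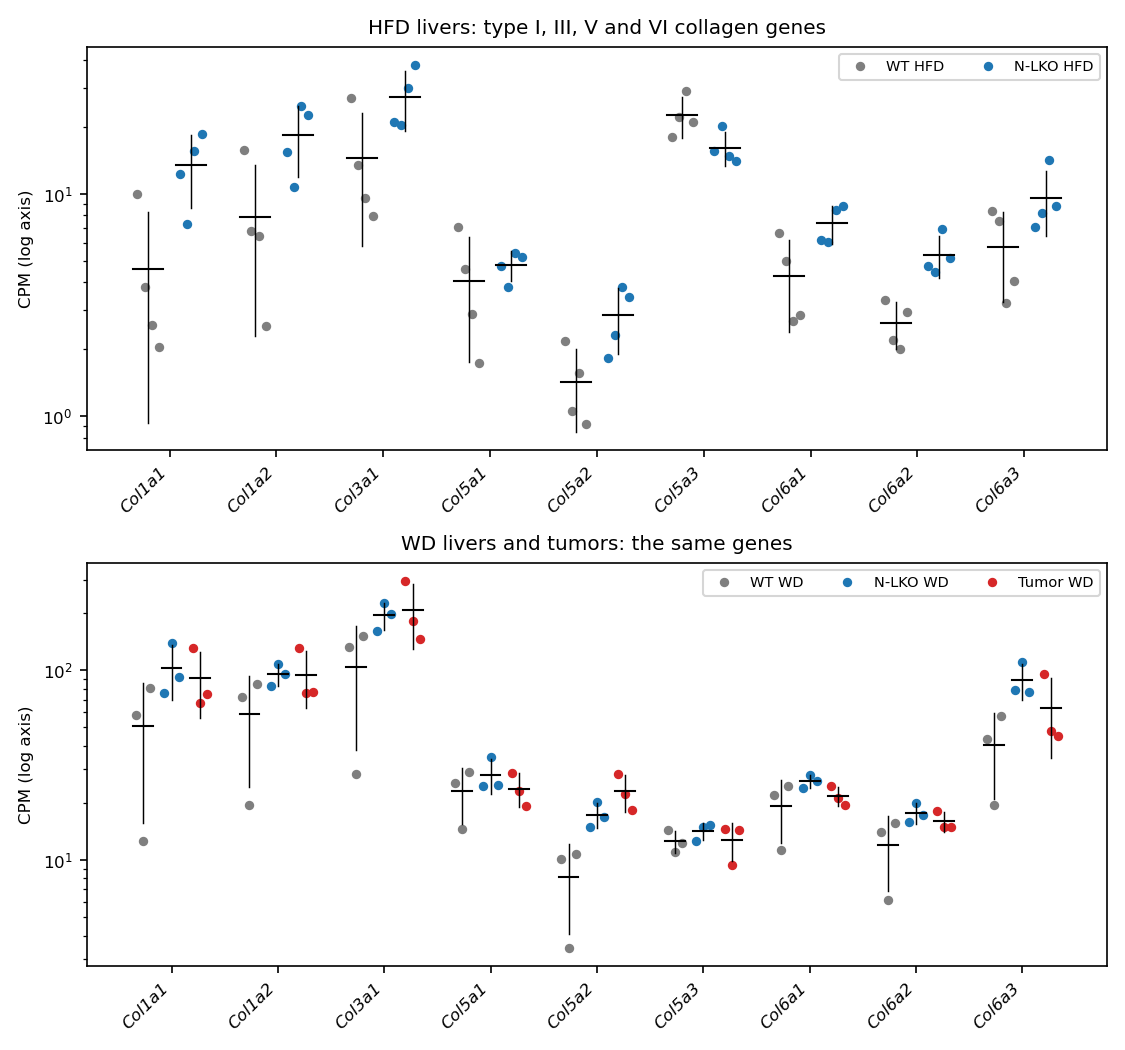
Type I, III, V and VI collagen genes, as CPM on a log axis, in HFD livers (upper panel) and in WD livers and tumors (lower panel). Points are libraries, horizontal bars the group means and vertical lines the SD (the lower arm is left out where it would reach 0); in the lower panel WT WD 2 lies far below the other WT WD points, for example at 12.5 CPM of Col1a1 against 58.2 and 81.0.

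Basement membrane collagens did not pass under HFD. Col18a1 was 484, 536, 521 and 519 CPM in WT and 414, 444, 445 and 482 in N-LKO livers; all N-LKO values lay below all WT values, but by a small margin (−0.21 ± 0.08, adjusted p 0.155). Col15a1 was 5.31, 2.96, 2.78 and 3.67 in WT and 4.14, 2.72, 8.60 and 5.60 in N-LKO livers and overlapped (0.49 ± 0.33, adjusted p 0.405). Col14a1, a fibril-associated collagen, overlapped as well, at 47.6, 32.7, 21.6 and 22.4 CPM in WT and 27.9, 34.9, 37.5 and 48.6 in N-LKO livers (0.26 ± 0.24, adjusted p 0.552). Col12a1, Col13a1, Col16a1 and Col4a3, each under 5 CPM on average, had log2 fold changes of −0.20, −0.49, −0.07 and −0.19. The 10 genes too low to test (Col4a4, Col4a5, Col6a5, Col6a6, Col8a1, Col8a2, Col11a2, Col20a1, Col23a1 and Col24a1) had at most 13 counts in a library and were not tested in the comparison under HFD. Col8a2 was at 0 in all 4 WT HFD livers and between 0.109 and 0.39997 CPM in the N-LKO livers, at most 5 counts.

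The major type IV chains had fold changes of opposite sign under HFD. These chains assemble together, and in the GENCODE M21 annotation of GRCm38 their genes lie head to head on chromosome 8, their first bases overlapping by 22 bases. Col4a1 was 24.5, 23.3, 17.5 and 13.9 CPM in WT and 20.5, 21.8, 34.3 and 28.5 in N-LKO livers (0.40 ± 0.20, adjusted p 0.251). Col4a2 was 17.3, 22.3, 14.1 and 12.9 in WT and 11.3, 9.89, 16.0 and 15.7 in N-LKO livers (−0.34 ± 0.20, adjusted p 0.331). Neither gene passed, but the ratio of Col4a1 to Col4a2 per kilobase was 1.38, 1.02, 1.21 and 1.04 in the WT livers and 1.77, 2.15, 2.09 and 1.77 in the N-LKO livers. The ratio was thus higher in every N-LKO liver than in any WT liver, with a log2 difference of 0.75 (log2 SD 0.15 in N-LKO and 0.20 in WT livers, n = 4 each) that ran from 0.69 to 0.83 when 1 library was left out. The exact permutation p was 0.0286, two-sided, the smallest that the 70 splits of these 8 libraries allow. This ratio was chosen after its values had been seen, and over the 3 chain pairs computed the adjusted p was 0.0857; the ratios of Col1a1 to Col1a2 and of Col6a1 to Col6a2 had exact permutation p of 0.200 and 0.629. Under WD the ratio was 1.82, 1.45 and 2.03 in WT livers, 2.24, 2.12 and 1.88 in N-LKO livers and 1.79, 1.51 and 1.66 in tumors, with overlap between WT livers and both other groups. Strand use in the counting was not stated, so reads from the 22 shared bases cannot be assigned with certainty.

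**Figure D3:**
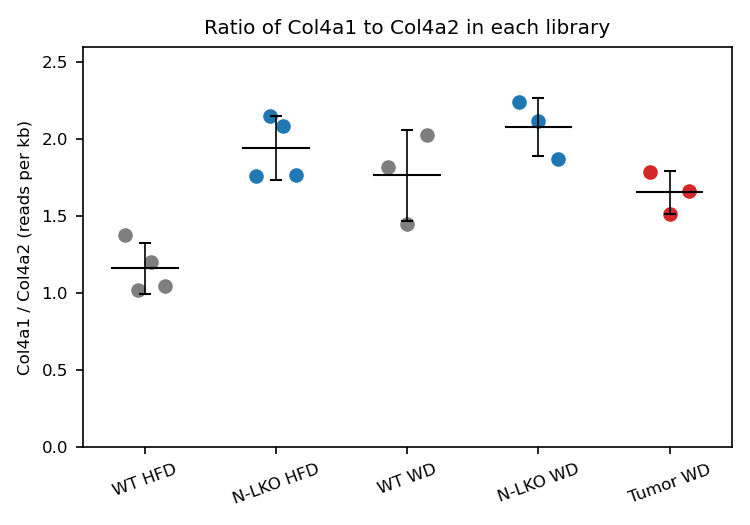
Ratio of Col4a1 to Col4a2 reads per kilobase in each library. Points are libraries, horizontal bars group means and error bars the SD; the 4 N-LKO HFD livers sit between 1.77 and 2.15, above the 4 WT HFD livers at 1.02 to 1.38, while the WT WD livers, N-LKO WD livers and tumors range from 1.45 to 2.24.

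Markers of several other liver cell types also differed between these groups under HFD, where 4.84% of all genes tested passed in either direction. The portal fibroblast markers (6 of 8 in the table) summed to 4.07 to 7.61 CPM in WT and 7.37 to 11.9 in N-LKO livers, and overlapped only through WT HFD 1; 0 of the 4 tested passed. Cholangiocyte markers (7 of 8) summed to 33.3 to 49.1 in WT and 69.6 to 118 in N-LKO livers. Only 3 of them had enough counts to be tested, and 1 of 3 passed, higher. The 3 log2 fold changes ran from 0.14 to 1.55 with a median of 0.36, so the list did not rise evenly. Macrophage markers (9 of 9) summed to 120.0 to 163.8 and 62.0 to 135, and 3 of 8 passed, all lower in N-LKO livers. Of the 8 tested, 1 had a log2 fold change above 0, at 1.40, and did not pass. By flow cytometry, which counts cells and not RNA, the paper reported more macrophages in N-LKO livers under HFD. Sinusoidal endothelial markers (8 of 8) summed to 156 to 181 and 112 to 164.3, and 2 of 8 passed, both lower. Hepatocyte markers overlapped, at 81248 to 93012 and 73117 to 89888, and 0 of 10 passed. Stellate cell markers (12 of 12) overlapped, at 166 to 231 and 154 to 216 with 1 of 12 higher and 1 lower, as did activated myofibroblast markers (6 of 8) at 7.13 to 17.2 and 8.08 to 19.0. WT HFD 1 had the highest WT sum of the portal fibroblast, cholangiocyte, stellate cell and activated myofibroblast lists. No marker of these lists that was in the table was at 0 in all libraries of a group, and the part of these cells in the collagen values was not tested. Acta2, the actin of activated stellate cells, was too low to test under HFD. It had 1 to 3 counts in each WT HFD library and was 0.968 ± 0.593 CPM in N-LKO livers, from 0.544 to 1.84. That mean was 2.90-fold the floor of 0.334 CPM that 3 counts make, so these values lie near the detection limit. Lrat, a stellate cell enzyme of vitamin A storage, was 13.5 ± 4.01 in WT and 9.53 ± 1.54 in N-LKO livers (−0.50 ± 0.20, adjusted p 0.162).

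Genes that modify, process, bind or break down collagen were followed as 6 lists of 87 genes. Under HFD 58 were tested, 2 were higher and 1 was lower in N-LKO livers, which is 5.17% of the 58 against 4.84% of all genes tested. Dpt, which encodes the fibril-binding protein dermatopontin, was 2.40 ± 0.628 CPM in WT and 9.22 ± 2.25 in N-LKO livers (1.93 ± 0.24, adjusted p 0.00589). Mrc2, a receptor that takes up collagen fragments, was 0.741 ± 0.245 and 1.81 ± 0.257 (1.27 ± 0.31, adjusted p 0.0388). Bmp1, the protease that removes the C-terminal propeptide of procollagen, was lower, at 86.1 ± 9.37 and 66.2 ± 3.61 (−0.38 ± 0.09, adjusted p 0.0375). By list, 0 of 16 modification and folding genes, 1 of 8 processing and crosslinking genes, 1 of 6 proteoglycans, 1 of 9 breakdown genes, 0 of 5 receptors and 0 of 14 basement membrane partners passed. The collagen chaperone Serpinh1 (0.35 ± 0.22), the prolyl hydroxylase subunits P4ha1 (−0.08 ± 0.34) and P4ha2 (−0.26 ± 0.24), the crosslinking enzyme Loxl2 (0.51 ± 0.29) and the gelatinase Mmp2 (1.34 ± 0.43, adjusted p 0.0919) did not pass, and Plod2, Lox, Mmp13 and Timp1 were too low to test.

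The same genotype comparison under WD gave no collagen call. With edgeR 0 of 29 tested collagens passed, as did 0 of 17829 genes in all (0%). At an unadjusted p under 0.05, 8 collagens were above 0 and 1 below, against 7.10% and 5.31% of all genes, and DESeq2 called 1 of the 29, Col15a1. Of the 29, 26 had a log2 fold change above 0, with a median of 0.56, against 51.4% of all genes and a median of 0.01. Without WT WD 2, the library low for types I, III and VI, the median was 0.32 and 25 of 32 tested genes were above 0.

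Col15a1, the type XV chain, had the lowest p of the family. It was 6.18, 8.41 and 8.53 CPM in WT livers and 17.9, 18.6 and 15.3 in N-LKO livers, so that the lowest N-LKO value was well above the highest WT value (1.16 ± 0.19, adjusted p 0.151). Of the other basement membrane genes, Col4a5 was 2.27, 1.36 and 2.15 in WT and 3.87, 3.80 and 5.69 in N-LKO livers, without overlap (1.20 ± 0.40, adjusted p 0.354). Col18a1 was 692, 877 and 703 in WT and 583, 459 and 506 in N-LKO livers, every N-LKO value below every WT value (−0.55 ± 0.18, adjusted p 0.353). Groups did not overlap for 11 of the 29 collagens toward higher N-LKO values, against 14.3% of all genes tested under WD. Col4a1 was 95.1, 61.2 and 118 in WT and 117, 121 and 115 in N-LKO livers (0.36 ± 0.29, adjusted p 0.601). Col4a2 was 50.9, 41.2 and 56.7 and 50.7, 55.4 and 59.7 (0.16 ± 0.29, adjusted p 0.834), and both major type IV chains thus overlapped.

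Among fibrillar genes, WT WD 2 set much of the spread. Col1a1 was 58.2, 12.5 and 81.0 CPM in WT and 76.1, 139 and 92.4 in N-LKO livers (1.02 ± 0.54, adjusted p 0.457). Without WT WD 2 its log2 fold change was 0.56 (adjusted p 0.910). Col1a2 was 72.005, 19.5 and 84.6 in WT and 83.0, 107 and 94.9 in N-LKO livers (0.69 ± 0.43, adjusted p 0.510; 0.28 without WT WD 2). WT WD 3 lay within the N-LKO range for both type I chains. Col3a1 was 132, 28.3 and 151 and 160.8, 226 and 197 (0.90 ± 0.49, adjusted p 0.469; 0.45 without WT WD 2). Col5a2 was 10.2, 3.46 and 10.8 and 14.9, 20.2 and 16.9 (1.09 ± 0.35, adjusted p 0.353), without overlap. Col5a1 (0.29 ± 0.26), Col5a3 (0.18 ± 0.20) and Col27a1 (0.08 ± 0.23) had values of 8.68 to 34.7 CPM that overlapped. WT WD 2 also had the lowest WT sums of the portal fibroblast (8.21 CPM), activated myofibroblast (19.4) and cholangiocyte (28.6) markers, and its part in the collagen values was not tested.

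None of the type VI chains passed under WD. Col6a3 was 43.4, 19.5 and 57.4 CPM in WT and 78.9, 110.3 and 76.4 in N-LKO livers, with no overlap (1.14 ± 0.39, adjusted p 0.359). Col6a1 was 21.9, 11.3 and 24.6 and 23.9, 27.9 and 26.1, with overlap through WT WD 3 (0.43 ± 0.24, adjusted p 0.480), and Col6a2, the gene that passed under HFD, was 14.1, 6.17 and 15.6 and 15.8, 20.1 and 17.2, just without overlap (0.56 ± 0.29, adjusted p 0.443). Col6a5 and Col6a6, neighbours on chromosome 9 with fractional counts in 3 of the 9 WD libraries each, had log2 fold changes of 1.89 ± 0.54 and 1.15 ± 0.37 (both adjusted p 0.353). Col14a1 was 178, 121 and 172 in WT, 171, 145 and 201 in N-LKO livers and 188, 159.6 and 148 in tumors, with log2 fold changes over the 3 comparisons between −0.06 and 0.13. Col12a1, another fibril-associated chain, was 11.1, 6.04 and 9.78 in WT and 10.6, 23.1 and 14.5 in N-LKO livers, with overlap (0.84 ± 0.56, adjusted p 0.531).

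Under WD no cell type marker tested passed in N-LKO against WT livers, although several sums did not overlap. The hepatocyte sum (10 of 10 markers) was 57888 to 73674 CPM in WT livers, 40582 to 50229 in N-LKO livers, with all 10 log2 fold changes below 0 and a median of −0.53, and 37703 to 65423 in tumors. The portal fibroblast sum (8 of 8 markers) was 8.21 to 19.5 CPM in WT livers, 27.7 to 29.9 in N-LKO livers and 35.8 to 56.3 in tumors. The cholangiocyte sum (8 of 8) was 28.6 to 83.4, 129.7 to 164.003 and 219.8 to 546. The stellate cell sum (12 of 12) was 526 to 691, 524 to 589 and 335 to 488, and the tumor values lay below all others. Activated myofibroblast markers (8 of 8) overlapped over the 3 groups, at 19.4 to 59.7, 38.5 to 49.98 and 41.03 to 78.0. Of the other lists, mesothelial and sinusoidal endothelial sums overlapped between WT and N-LKO livers and the macrophage sum of WT livers, 503 to 807 CPM, overlapped with both 530.2 to 602 in N-LKO livers and 260.1 to 587 in tumors. Of the adipocyte markers Lep and Retn were not in the table, and Adipoq and Plin1 were at 0 in all WT WD livers. In tumors against WT livers, 4 of 7 portal fibroblast and 3 of 7 cholangiocyte markers were higher, and 6 of 12 stellate cell, 3 of 10 hepatocyte, 2 of 8 sinusoidal endothelial and 2 of 9 macrophage markers were lower. Over all genes tested in that comparison, 14.9% passed in either direction and 8.08% toward higher values. The part of any of these cells in the collagen values was not tested.

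Tumors were compared with both WD liver groups to ask which collagens set tumor tissue apart. Against WT livers 9 of 29 collagens passed and all 9 were higher in tumors, against 14.9% of all genes tested in either direction and 8.08% toward higher values. They were 5 of the 6 type IV genes (Col4a1, Col4a2, Col4a3, Col4a4 and Col4a5), Col15a1, the type VI genes Col6a5 and Col6a6, and 1 fibrillar gene, Col5a2. Against N-LKO livers 1 of 29 passed, Col4a5, against 0.499% of all genes. The WT and N-LKO livers of these contrasts also stand in the genotype comparison, and the tumors stand in both, so the contrasts share libraries and are not independent of each other. All 3 tumors lay above all WT livers for 11 of the 29 collagens and above all N-LKO livers for 4, against 17.7% and 11.5% of all genes tested.

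Stretches before some of the genes that passed are shown, because type IV genes lie in pairs that start near each other. Genes of types VI and XV also carried calls and are shown as well. Col5a2, the fibrillar gene that passed, had no promoter window. Col4a4 and Col4a3 lie head to head with 71 bases between their annotated starts, Col4a6 and Col4a5 start 1309 bases apart on the X chromosome, and Col4a1 and Col4a2 overlap at their starts and are not printed. The sequences are the 71 bases between Col4a4 and Col4a3 and the 150 bases before an annotated start of the other genes, read 5′ to 3′ on the strand of the gene named first from the RefSeq promoter windows of GRCm38.p6. Capitals mark the motif TATAAA, which is known to bind the general factor TBP, the motif CCAAT, known to bind NF-Y, or the motif GGGCGG, known to bind Sp1, each searched on both strands.
Col4a4 and Col4a3 (chr1:82586850-82586920, minus strand): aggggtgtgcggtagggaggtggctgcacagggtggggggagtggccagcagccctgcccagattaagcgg
Col4a5 (chrX:141475235-141475384, plus strand): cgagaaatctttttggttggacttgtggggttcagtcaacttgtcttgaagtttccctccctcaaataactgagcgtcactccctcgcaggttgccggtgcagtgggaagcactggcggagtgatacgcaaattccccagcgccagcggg
Col15a1 (chr4:47207862-47208011, plus strand): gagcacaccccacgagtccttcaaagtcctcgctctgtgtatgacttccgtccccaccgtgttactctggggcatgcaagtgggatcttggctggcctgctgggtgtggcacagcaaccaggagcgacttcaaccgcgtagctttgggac
Col6a5 (chr9:105960644-105960793, minus strand): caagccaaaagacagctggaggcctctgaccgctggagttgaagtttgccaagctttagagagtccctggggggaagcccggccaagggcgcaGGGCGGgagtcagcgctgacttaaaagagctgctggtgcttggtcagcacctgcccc
Col6a6 (chr9:105828161-105828310, minus strand): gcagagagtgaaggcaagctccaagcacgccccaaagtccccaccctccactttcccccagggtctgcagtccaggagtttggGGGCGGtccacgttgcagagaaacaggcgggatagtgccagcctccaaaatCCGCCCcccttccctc
Col6a2 (chr10:76623631-76623780, minus strand): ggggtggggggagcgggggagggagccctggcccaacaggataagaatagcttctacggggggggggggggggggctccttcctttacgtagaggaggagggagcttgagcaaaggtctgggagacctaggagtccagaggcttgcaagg
Col6a2 is the gene that passed under HFD. Of these, Col6a5 held 1 match of GGGCGG and Col6a6 held 2, 1 on each strand, and the letters of the 3 motifs were not in the other stretches printed. The longer windows of Col4a1 and Col4a2, and that of Col4a5 outside the stretch shown, held matches of CCAAT and also of GGGCGG. The longer windows of Col6a2, which overlap each other, held 3 and 1 matches of GGGCGG, on the strand opposite to the gene. Promoter windows of 300 bases were found for 30 of the 37 collagen genes, with 32 windows in all; 62.5% of these held GGGCGG, 31.2% held CCAAT and 15.6% held the letters TATAAA, against 35.7%, 37.4% and 13.6% of all 32851 windows. A match is a description of the letters and not a bound site.

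Among the basement membrane genes, Col15a1 and Col4a5 separated all 3 groups. It was 37.4, 39.4 and 26.9 CPM in the tumors against 6.18, 8.41 and 8.53 in WT and 17.9, 18.6 and 15.3 in N-LKO livers, and no group overlapped another. The log2 fold change was 2.16 ± 0.19 against WT (adjusted p 0.00124) and 1.00 ± 0.18 against N-LKO livers, just outside the threshold (adjusted p 0.0508). Col4a5 was 20.1, 28.2 and 9.70 in the tumors, 2.27, 1.36 and 2.15 in WT and 3.87, 3.80 and 5.69 in N-LKO livers, again with the groups apart. It rose against WT (3.32 ± 0.40, adjusted p 0.00470) and against N-LKO livers (2.12 ± 0.36, adjusted p 0.0412). The second of these calls was kept in 7 of 18 alternative analyses, with adjusted p between 8.73e-06 and 0.246. Col15a1, Col4a5 and Col6a5 passed against WT livers in all 18 alternatives.

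The major type IV chains were highest in tumor 2. Col4a1 was 145, 315 and 199.8 CPM in the tumors, against 95.1, 61.2 and 118 in WT livers (1.27 ± 0.29, adjusted p 0.0222) and 117, 121 and 115 in N-LKO livers (0.91 ± 0.29, adjusted p 0.1499). Col4a2 was 78.98, 203 and 117 in tumors, against 50.9, 41.2 and 56.7 in WT (1.42 ± 0.29, adjusted p 0.0160) and 50.7, 55.4 and 59.7 in N-LKO livers (1.27 ± 0.29, adjusted p 0.0820). All 3 tumors exceeded all livers for both chains, but they spread over a wide range.

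The minor chains Col4a3 and Col4a4 were highest in tumor 3. Col4a3 was 1.76, 6.27 and 50.2 CPM in the tumors, against 0.892, 1.22 and 0.895 in WT livers (4.27 ± 1.05, adjusted p 0.0267) and 2.35, 1.99 and 1.60 in N-LKO livers (3.28 ± 0.96, adjusted p 0.125). In tumor 1 it was within the range of the N-LKO livers. Col4a4, its head-to-head neighbour, was 1.86, 3.74 and 13.5 in tumors, against 1.51, 1.02 and 0.954 in WT (2.45 ± 0.63, adjusted p 0.0316) and 2.15, 2.33 and 2.02 in N-LKO livers (1.54 ± 0.59, adjusted p 0.208). The 3 tumors ranked alike for both genes. Without tumor 3, Col4a3 was 2.00 against WT (adjusted p 0.0362) and Col4a4 1.27 (adjusted p 0.0534), so the size of both changes rests on that tumor. Col4a5 was lowest in tumor 3, where Col4a3 and Col4a4 were highest. Col4a6 did not pass, at 1.01, 0.578 and 0.313 CPM in tumors and 0.275, 0.136 and 0.179 in WT livers (1.66 ± 0.56, adjusted p 0.0732). It was 0.638 to 1.03 CPM in N-LKO livers, which overlapped with the tumors (−0.32 ± 0.46, adjusted p 0.754). Those N-LKO livers lay above all WT livers without passing (1.98 ± 0.55, adjusted p 0.353).

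**Figure D4:**
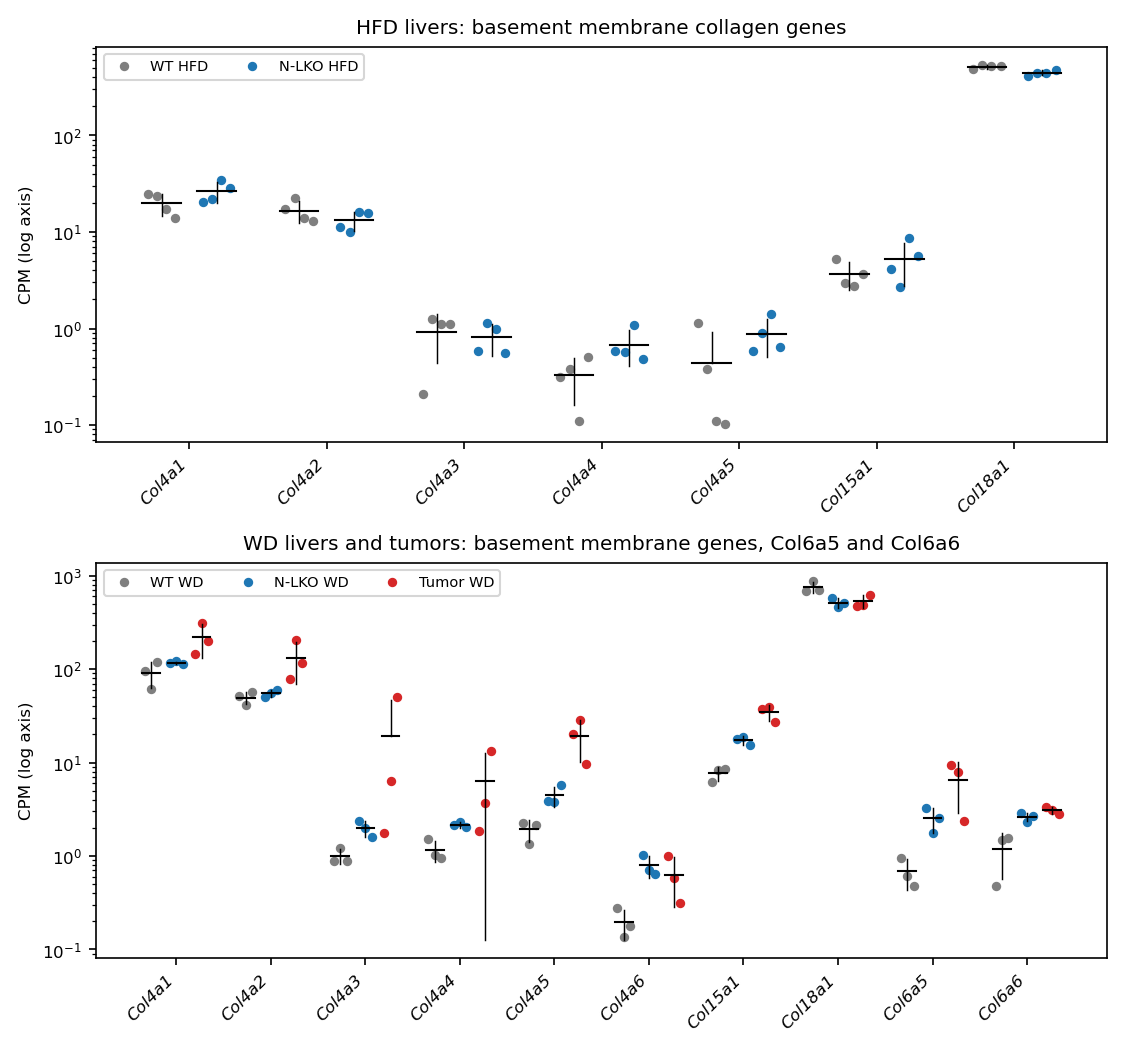
Basement membrane collagen genes as CPM on a log axis in HFD livers (upper panel) and, with Col6a5 and Col6a6, in WD livers and tumors (lower panel). Points are libraries, horizontal bars group means and vertical lines the SD (lower arm left out where it would reach 0); Col15a1 separates the WT, N-LKO and tumor groups, and Col4a3 spans 1.76 to 50.2 CPM among the 3 tumors.

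Col18a1, the most abundant basement membrane collagen, did not follow the type IV genes. It was 477, 491 and 628 CPM in the tumors, below every WT liver but without passing (−0.51 ± 0.18, adjusted p 0.0797) and within reach of the N-LKO livers (0.04 ± 0.18, adjusted p 0.928). In tumors the type IV genes had a median log2 fold change of 2.05 against WT and 1.41 against N-LKO livers, where the medians of all genes were 0.04 and 0.02.

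Fibrillar collagens gave few differences between tumors and livers. Col5a2 was 28.5, 22.2 and 18.3 CPM in tumors and passed against WT (1.49 ± 0.35, adjusted p 0.0232) but not against N-LKO livers (0.41 ± 0.34, adjusted p 0.559). Col1a1 was 130.4, 66.98 and 74.8 CPM in tumors, with a log2 fold change of 0.84 ± 0.53 against WT (adjusted p 0.301) and −0.18 ± 0.53 against N-LKO livers (adjusted p 0.898). Col1a2 was 131, 76.1 and 76.6 (0.69 ± 0.43 and −0.01 ± 0.43) and Col3a1 294, 181 and 145 (0.99 ± 0.50 and 0.09 ± 0.49). Tumor 1 was the highest of the tumors for these 3 genes, and for all 3 the tumors overlapped with both liver groups. The standard errors of 0.43 to 0.53 against N-LKO livers leave room for changes of either sign. Against N-LKO livers the 8 fibrillar genes tested had a median of −0.08, and 3 of the 8 were above 0, against 51.7% of all genes.

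Of the type VI genes, Col6a5 and Col6a6 rose in tumors against WT livers and the main chains did not pass. Col6a5 was 9.30, 7.83 and 2.40 CPM in tumors against 0.961, 0.610 and 0.477 in WT (3.25 ± 0.53, adjusted p 0.00903) and 3.28, 1.76 and 2.55 in N-LKO livers (1.36 ± 0.46, adjusted p 0.164). Col6a6 was 3.37, 3.11 and 2.82 in tumors against 0.480, 1.49 and 1.55 in WT (1.39 ± 0.37, adjusted p 0.0331) and 2.89, 2.33 and 2.66 in N-LKO livers (0.24 ± 0.34, adjusted p 0.754). Both sit at low levels, and their fractional counts show that some reads were divided between features. Other collagens had fractional counts too, such as Col4a1 and Col18a1 in 8 WD libraries each and Col15a1 in 3. Which features shared these reads is not given. Col6a1, Col6a2 and Col6a3 had values of 24.5, 21.3 and 19.4, of 18.1, 14.9 and 14.9 and of 95.8, 48.0 and 44.7 CPM in the tumors, with log2 fold changes of 0.17, 0.42 and 0.65 against WT and −0.26, −0.15 and −0.49 against N-LKO livers.

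The remaining classes held no call. Col13a1, a transmembrane collagen, was lowest in tumors, at 1.66, 0.356 and 0.469 CPM against 1.92, 2.92 and 1.85 in WT (−1.43 ± 0.52, adjusted p 0.0898) and 2.35, 3.09 and 1.86 in N-LKO livers (−1.56 ± 0.51, adjusted p 0.161). Col16a1, which is fibril-associated, was −0.60 ± 0.28 against WT and −0.63 ± 0.28 against N-LKO livers, with overlap in both. Col12a1 was 19.8, 3.29 and 5.94 in the tumors (0.10 ± 0.56 against WT). Col8a2, a network-forming chain, was just outside the threshold against WT at under 1 CPM in every library (2.33 ± 0.72, adjusted p 0.0541). Against N-LKO livers it was 0.07 ± 0.56 (adjusted p 0.967), and N-LKO against WT livers gave 2.27 ± 0.72 (adjusted p 0.353). Against WT, Col8a1, Col10a1, Col23a1 and Col24a1 had log2 fold changes of 0.85, 0.07, −0.84 and −1.15. The 8 genes too low to test (Col7a1, Col9a3, Col11a2, Col17a1, Col20a1, Col22a1, Col25a1 and Col28a1) had at most 36 counts in a library, that of Col20a1 in tumor 1 at 1.81 CPM.

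**Figure D5:**
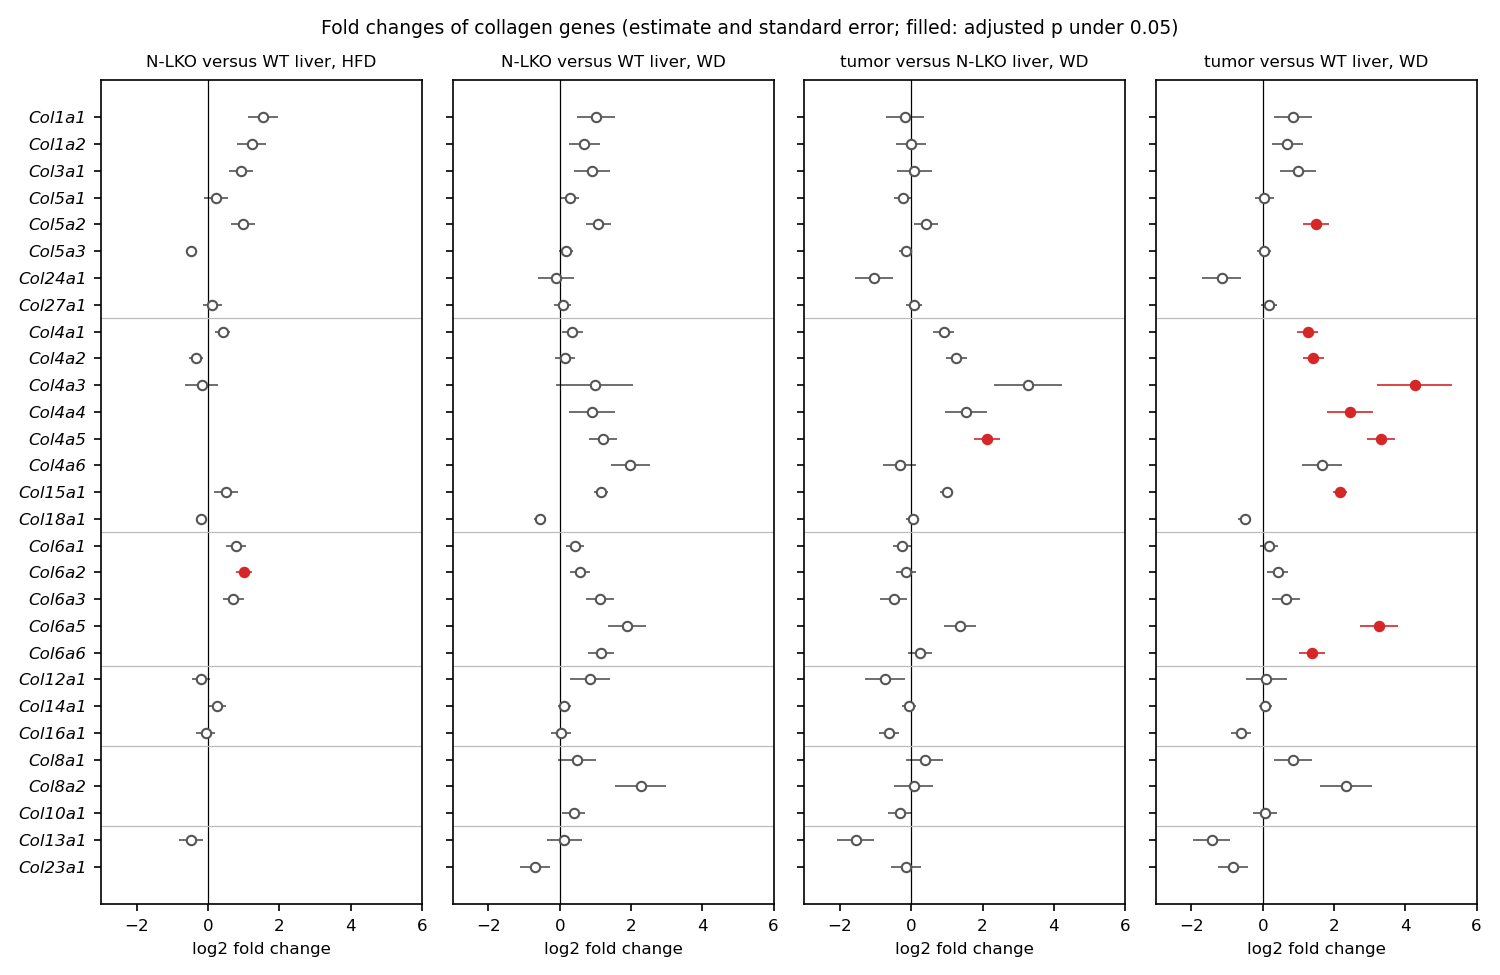
Log2 fold changes of the tested collagen genes in the 4 comparisons, with their standard errors on the horizontal axis; grey lines divide the classes and filled red points passed at an adjusted p under 0.05. One point is filled for N-LKO versus WT liver under HFD (Col6a2), none under WD, 1 where tumors are set against N-LKO livers (Col4a5) and 9 where they are set against WT livers, 6 of them basement membrane genes.

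Single libraries decided several of these calls. Leaving out WT WD 2 brought the collagens that passed against WT from 9 to 4 (Col15a1, Col4a5, Col5a2 and Col6a5), and leaving out WT WD 1 brought them to 5. Fitting the tumors and WT livers alone gave 3 (Col15a1, Col4a5 and Col6a5). Against N-LKO livers, 9 passed without tumor 1 (Col4a1, Col4a2, Col4a3, Col4a4, Col4a5 and Col15a1 higher, Col12a1, Col13a1 and Col16a1 lower), 2 without tumor 3 (Col15a1 and Col4a5) and 0 without any 1 of the other 7 libraries; DESeq2 called 5 (Col4a1, Col4a2, Col4a3, Col4a5 and Col15a1). Tumor 1 had the highest activated myofibroblast, stellate cell and sinusoidal endothelial sums and the lowest portal fibroblast sum of the tumors.

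In tumors against WT livers, 17 of the 79 list genes tested were higher and 6 lower, together 29.1% against 14.9% of all genes. Timp4, an inhibitor of matrix proteases, had 0 or 1 count in each WT liver and 1.51 to 78.0 CPM in the tumors, at least 215-fold higher on average (adjusted p 0.00897), and at least 278-fold higher than in N-LKO livers, which had 1 count each (adjusted p 0.0323). The collagenase Mmp13 was 14.6 ± 7.79 CPM in tumors and 1.69 ± 1.51 in WT livers (3.09 ± 0.61, adjusted p 0.0140). Ddr1, a collagen-binding receptor kinase, was 13.6 ± 8.43 against 2.00 ± 0.715 (2.75 ± 0.52, adjusted p 0.0128). Of the 15 basement membrane partners, which include laminin chains, 5 were higher and 1 was lower. By list, 2 modification and folding genes were higher and 3 lower of 20, 1 and 1 of 12 processing genes, 1 and 1 of 8 proteoglycans, 5 and 0 of 15 breakdown genes and 3 and 0 of 9 receptors. Those with the largest falls were Pcolce2, an enhancer of procollagen processing (−1.76 ± 0.39, adjusted p 0.0203), the laminin chain Lama1 (−1.60 ± 0.41, adjusted p 0.0310) and P4ha2 (−1.36 ± 0.32, adjusted p 0.0228).

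Of the collagen-making enzymes named by rule, Plod2, which hydroxylates lysines for crosslinks, rose against WT (1.34 ± 0.38, adjusted p 0.0441), as did the gelatinase Mmp2 (0.99 ± 0.29, adjusted p 0.0464). Serpinh1 (0.54 ± 0.19, adjusted p 0.0829), P4ha1 (0.08 ± 0.23, adjusted p 0.837), Lox (1.32 ± 0.46, adjusted p 0.0799), Loxl2 (0.57 ± 0.31, adjusted p 0.234), Timp1 (1.04 ± 0.55, adjusted p 0.219), Acta2 (1.14 ± 0.62, adjusted p 0.228) and Lrat (−0.61 ± 0.21, adjusted p 0.0742) did not pass. In N-LKO against WT livers under WD none of the 79 list genes passed; Lox was 5.64 ± 1.44 CPM in N-LKO and 1.68 ± 0.757 in WT livers (1.73 ± 0.46, adjusted p 0.353), Mmp2 1.17 ± 0.29, Mmp13 1.71 ± 0.60, Plod2 0.93 ± 0.39, Serpinh1 0.50 ± 0.19 and Timp1 0.99 ± 0.55. At an unadjusted p under 0.05, 18 of them were above 0 and 2 below, against 7.10% and 5.31% of all genes. Tumors against N-LKO livers had 2 calls in these lists (2.53% of 79 against 0.499% of all genes), Timp4 and the collagen III receptor gene Adgrg1 (1.74 ± 0.30, adjusted p 0.0429).

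Whether the genotype effect on collagens differed between the diets was tested over the 14 livers. None of the 24 collagens tested passed with edgeR, against 1.62% of all 15850 genes, and 2 of 24 were above 0 at an unadjusted p under 0.05, against 9.18% of all genes. These were Col5a3, for which the genotype effect was 0.68 ± 0.23 higher under WD than under HFD on the log2 scale (adjusted p 0.122), and Col12a1 (1.06 ± 0.43, adjusted p 0.179). The difference was −0.52 ± 0.76 for Col1a1, 0.00 ± 0.71 for Col3a1, −0.42 ± 0.40 for Col6a2 and 0.69 ± 0.41 for Col15a1. A call under 1 diet and not the other, such as that of Col6a2, was therefore not shown to be a difference between diets.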

How the data were processed

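RNA-seq was performed on 17 mouse libraries, grouped by their titles. Per the paper's methods, ribosomal RNA was removed, single-end reads were aligned with TopHat2 and tested with cuffdiff; the submitters' processing notes name STAR, Partek and mm9. The files deposited by the authors hold estimated counts for each gene, neither scaled nor pooled; reads fitting several features were divided between them, so near-identical, overlapping or antisense genes are uncertain, and strand use was not stated. Gene starts fitted GENCODE M21 (GRCm38), where 97.7% of HFD and 97.4% of WD genes matched by symbol and chromosome, so positions are given from that build. All columns could be assigned to a sample.

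Counts were rounded and tested in edgeR 4.0.16 (R 4.3.3) with TMM normalization, filterByExpr, the quasi-likelihood F test and a Benjamini-Hochberg adjusted p under 0.05 over all genes tested. A gene is said to pass, rise or fall only on that test. HFD livers were fitted alone and the 3 WD groups together; the difference between diets was an interaction over 14 livers. The study's own test needs aligned reads. Standard errors were taken as the log2 fold change over the root of its F statistic and are approximate. CPM uses TMM-scaled library sizes, and per-kilobase values the transcript with the longest coding sequence. The common biological coefficient of variation was 0.149 under HFD, 0.243 under WD and 0.163 over both. Floors of 3 counts cover counting error only. The pipeline was tested on simulated data. Alternatives were other scalings, filters, DESeq2 1.42.0, limma 3.58.1 (voom), a length and GC offset, a replicate block, other sample sets and leaving out each library; leaving out libraries for the chain ratio was added after seeing the data. Within groups, no pair of libraries was the same library (chi-square per degree of freedom 8.74 to 116 over 21 pairs). The labels do not say that replicates came from separate mice, so p-values measure the spread between these samples.

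The members, gene lists and marker lists were chosen with earlier results of these data known. Library values are given mainly for collagens past the threshold in a comparison or with a mean of at least 5 CPM. Outside that rule, values of Col13a1 and Col4a6 under WD are given, and Col5a1, Col5a3 and Col27a1 under WD have only a range. Of the other lists, at most the 3 largest changes each way among genes past the threshold are named. They stand beside 12 fixed genes (Serpinh1, P4ha1, P4ha2, Plod2, Lox, Loxl2, Timp1, Mmp2, Mmp13, Acta2, Lrat and Nus1). Promoter sequences are from RefSeq (GRCm38.p6).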

Additional observations from a re-analysis of the deposited data

Results flagged for a closer look

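Among 66 sets of 4 HFD library values, 2 had a library far from the other 3, both in WT HFD 1. The sets were the tested collagen genes, sums over classes and smaller groups of collagens, and the chain ratios, each in WT and in N-LKO livers. Some sets share genes, such as Col18a1, which stood among both the genes and the sums. Chance marks about 1 set in 20, so 2 of 66 is not more than chance gives. Col4a3 was 0.208 CPM in WT HFD 1 and 1.11 to 1.24 in the other WT HFD livers, a gap of 0.874 of the range. The summed network, anchoring and other collagens (Col8a1 and Col8a2) were 0.625 CPM in WT HFD 1 and 0 to 0.102 in the others, a gap of 0.837 of the range. The WD groups hold 3 libraries each and were not examined in this way.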

How the results depend on the processing

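Collagen calls depended on the setting. N-LKO versus WT liver under HFD (1 call) had 2 with limma-voom, 0 with the replicate number as a block and 0 to 5 when 1 library was left out (5 without WT HFD 1, 3 without N-LKO HFD 2 and 0 otherwise). Under WD (0 calls) DESeq2 gave 1, and all other alternatives gave 0. Tumor versus N-LKO liver (1 call) had 2 with upper-quartile scaling, 5 with DESeq2, 0 with limma-voom, with a filter at a mean of 1 CPM, in a fit of those groups alone and with the replicate block, and 0 to 9 with 1 library left out (9 without tumor 1, 2 without tumor 3 and 0 otherwise). Tumor versus WT liver (9 calls) had 3 in a fit of those groups alone and 4 to 11 with 1 library left out (4 without WT WD 2, 5 without WT WD 1, otherwise 7 or more). The interaction gave 0 throughout. The causes were not tested, except that fits without a library hold fewer samples. Under the replicate block the 9 calls against WT livers became 6; deviations of same-numbered samples correlated at −0.0803 to 0.137 between HFD livers, 0.0801 to 0.0859 between WD livers and −0.151 to 0.127 between tumors and livers, not all over 0.1, so the numbers were not taken as pairs.

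Of 794 single-gene alternatives, 721 kept direction and side of the threshold, 47 lost and 18 gained a call, and 8 changed sign, all in the 4 results given next, which passed in no setting. Against N-LKO livers, Col1a2 was 0.0103 with upper-quartile scaling, and with 1 library left out Col1a1 ran from −0.53 to 0.10, Col1a2 from −0.32 to 0.12 and Col3a1 from −0.25 to 0.29. The interaction of Col1a1 ran from −1.22 to 0.0134. The length and GC offset moved the median of all genes from 0.01 to −0.09 between the WD livers and from 0.04 to −0.07 for tumor versus WT liver. The filter on low counts left 10 collagens under HFD and 8 under WD untested.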
